A study of Mus musculus with 6 samples.

Results

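Mki67, Top2a and 8 genes that act with them in mitosis and cytokinesis (Prc1, Tpx2, Anln, Ect2, Racgap1, Cks1b, Cks2 and Ube2c) were followed after Sox9 knockdown. They were picked by name from the 30315 genes of the deposited table, with earlier results of these data known, and each of the 10 was found once and was among the 12009 genes tested. The cells were primary renal tubular epithelial cells (TECs) of C57BL/6 mice. Of the 6 libraries, 3 were from cells given siSox9, an siRNA that targets Sox9, and 3 from cells given the control siRNA, siNC. Both groups underwent hypoxia/reoxygenation (H/R), a culture model of ischemia-reperfusion injury. Transfection preceded 6 h without glucose at 1.0% oxygen by 12 h, and 18 h of reoxygenation in complete medium followed. No library without H/R and no second siRNA against Sox9 was analysed here, and the labels do not say whether the replicates came from separate mice or cultures, so p-values measure the spread between these libraries, which may be technical.

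A dividing cell condenses its chromosomes, builds a spindle, separates the sister chromatids and is then pinched apart. Genes of this programme are transcribed mainly late in the cell cycle and are nearly silent in resting cells, and for this reason Ki-67, the product of Mki67, is widely used to mark cycling cells. In the kidney, surviving tubule cells re-enter the cell cycle after injury and replace those that were lost. In RNA from a whole culture, fewer dividing cells and less RNA per dividing cell cannot be told apart.

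The promoters of these genes are shown first, as a description of their sequence. Genes of the late cell cycle are known for a promoter element called CHR (cell cycle genes homology region), with the letters TTTGAA or TTCGAA, which the DREAM and MuvB complexes contact, and for CCAAT boxes, which NF-Y binds. RefSeq promoter windows (GRCm38.p6, from 250 bases before to 50 after the annotated start) were listed for 9 of the 10 genes, all but Tpx2. Both words were searched on both strands. CHR letters were found in 8 of the 9 windows (88.9%), against 19.4% of the 27025 promoters searched, CCAAT letters in 8 of the 9, against 37.9% of all promoters, and both in 7 of the 9 (77.8%), against 7.7%. The following stretches hold the 150 bases before the start of Mki67, Top2a, Ube2c and the Cks pair, and 30 bases around a match of Anln and Racgap1 that lies at or past the start. They are written 5′ to 3′ on the strand of the gene, with CHR and CCAAT letters (or TTCAAA and ATTGG, as they read on the other strand) in capitals.
Mki67, chr7:135716380-135716529, - strand: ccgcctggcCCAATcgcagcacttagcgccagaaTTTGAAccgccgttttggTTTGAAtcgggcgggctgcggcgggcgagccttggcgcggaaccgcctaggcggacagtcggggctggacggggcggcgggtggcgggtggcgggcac
Top2a, chr11:99024190-99024339, - strand: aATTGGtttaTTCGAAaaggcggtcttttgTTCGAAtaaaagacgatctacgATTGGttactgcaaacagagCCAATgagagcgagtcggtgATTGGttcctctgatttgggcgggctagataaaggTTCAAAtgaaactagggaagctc
Ube2c, chr2:164769779-164769928, + strand: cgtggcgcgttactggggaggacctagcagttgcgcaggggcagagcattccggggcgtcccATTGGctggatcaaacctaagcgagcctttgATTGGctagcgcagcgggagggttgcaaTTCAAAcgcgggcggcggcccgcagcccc
Cks1b, chr3:89418292-89418441, - strand: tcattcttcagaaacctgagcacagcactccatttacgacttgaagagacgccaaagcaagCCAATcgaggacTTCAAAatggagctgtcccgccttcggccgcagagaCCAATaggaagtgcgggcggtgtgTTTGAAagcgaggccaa
Cks2, chr13:51645082-51645231, + strand: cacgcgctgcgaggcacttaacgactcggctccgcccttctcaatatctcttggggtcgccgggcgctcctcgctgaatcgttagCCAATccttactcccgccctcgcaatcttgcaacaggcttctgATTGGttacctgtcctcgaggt
Anln, chr9:22389161-22389190, - strand: tgaaaTTCAAAtTTTGAAcggccgtggtag
Racgap1, chr15:99651634-99651663, - strand: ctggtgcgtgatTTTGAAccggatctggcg

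Top2a held the most matches, with 4 CHR words and 6 CCAAT words in its window. Mki67 held 2 CHR words, beginning 116 and 98 bases before the start, and 3 CCAAT words. The windows of Cks1b and Cks2 each held 4 CCAAT words, while Cks1b held 2 CHR words and Cks2 held 0. The RefSeq starts are not always those of the gene positions given below. For Cks1b (RefSeq start 89418291, gene to 89418383) and Ube2c (164769929, gene from 164769898), all CHR words lie inside the gene as positioned there. The window of Anln held 2 CHR words, beginning 22 and 29 bases into the transcript, and 0 CCAAT words. A match of letters is a description of the sequence and was not tested for binding.

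**Figure D1:**
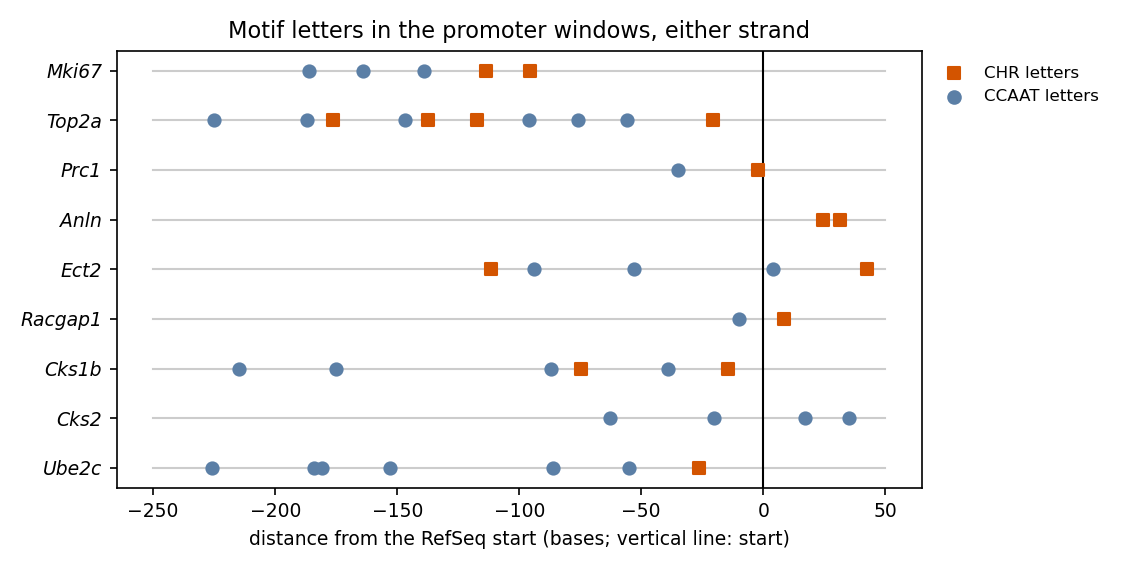
Position of CHR letters (orange squares) and CCAAT letters (blue circles), on either strand, in the RefSeq promoter window of 9 genes. The x axis gives the distance from the annotated start in bases and the vertical line marks the start; Cks2 has 4 CCAAT words and 0 CHR words.

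The libraries were similar in depth. With GENCODE M21 exon lengths, FPKM values (reads scaled to exon length and library size) gave library totals of 23893197 to 25725743 reads, and 3 reads on 1 kb of exon corresponded to 0.117 to 0.126 FPKM. Each of the 10 genes rested on 514 to 3351 reads in every library. Sox9 itself, the target, had 8.93, 8.61 and 9.07 FPKM with siSox9 and 25.7, 26.5 and 25.6 FPKM with siNC, which left 34.2% of the control level. Of the 9 tubule epithelium markers, all were expressed (Krt8 at 2123 and Epcam at 132 FPKM with siSox9) and their summed level, mostly Krt8 and Krt18, was 4098 to 4255 FPKM with siSox9 and 3944 to 4148 FPKM with siNC. One of them, Cdh16, a kidney cadherin, was higher with siSox9 (130 against 101 FPKM, log2 fold change 0.36, adjusted p = 3.07e-04 from limma), and the other 8 did not pass. Of the 5 proximal tubule markers listed, Lrp2 (megalin) had 2.41 and 2.13 FPKM and did not pass, Cubn had 0.473 and 0.479 FPKM, Aqp1 had 0.244 and 0.211 FPKM, and the transporters Slc34a1 and Slc5a2 were at or near 0. All 6 distal and collecting duct markers were below the minimum of 1 FPKM. Macrophage and leukocyte markers summed to 149 to 167 FPKM with siSox9 and 149 to 150 FPKM with siNC, with 1 of 6 tested (Lyz2) higher and 0 lower. The 6 fibroblast markers listed summed to 6.45 to 7.95 and 7.99 to 9.09 FPKM, and the 5 endothelial markers to 2.91 to 3.1 and 3.22 to 4.12 FPKM, each lower in every siSox9 library than in any siNC library. In both lists 1 gene was tested and it did not pass, and the part of these cells in the results was not tested.

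All 10 genes fell after Sox9 knockdown. Limma, on log2(FPKM + 1) with Benjamini-Hochberg adjustment over the 12009 genes, gave adjusted p-values between 5.11e-05 for Ube2c and 0.00815 for Cks2, against 17.6% of all tested genes called lower. For every one of the 10, the highest siSox9 library lay below the lowest siNC library, which was true of 26.1% of all tested genes. With 3 against 3 libraries, exact two-sided permutation cannot give a p under 0.1. The median log2 fold change of the 10 was -0.72 (range -0.78 to -0.29), against a median of -0.014 over all tested genes, of which the 5th percentile was -0.39 and the 95th 0.28. In FPKM, between 53.9% (Racgap1) and 81.4% (Cks2) of the control mean was left, with a median of 56.6%. Fold changes on the log2(FPKM + 1) scale understate the change of the genes with low FPKM.

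**Figure D2:**
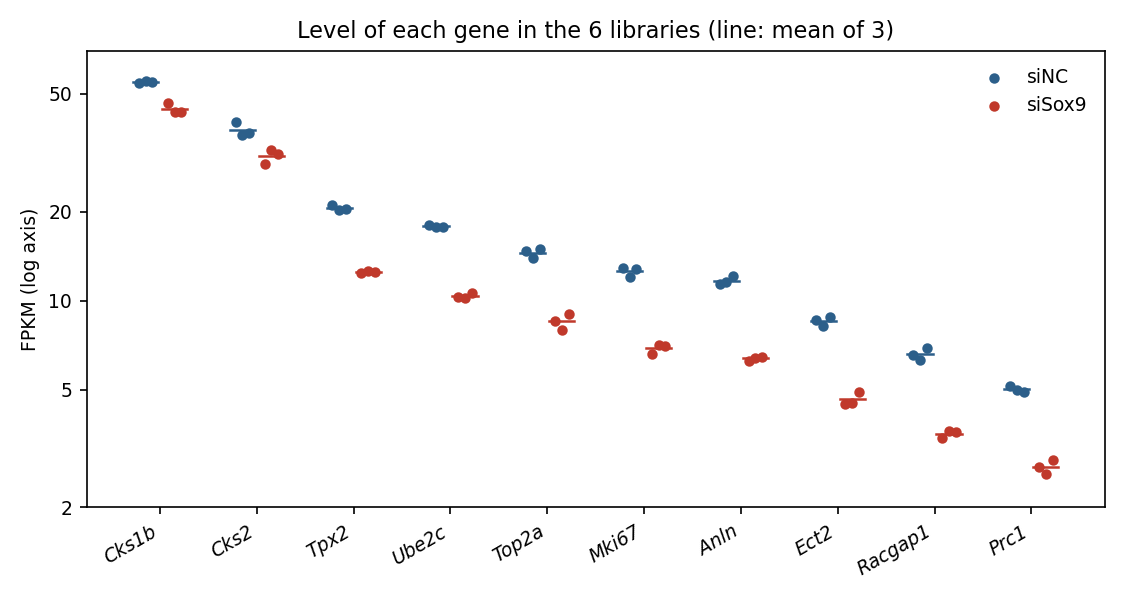
FPKM (y axis, log scale) of each gene in the 3 siNC libraries (blue) and the 3 siSox9 libraries (red), ordered by the siNC mean. Points are libraries and short lines the means of 3; in every gene the red points lie below the blue ones, and the gap in proportion is smallest for Cks1b and Cks2.

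Of the proteins that act on the chromosomes, Ki-67 coats the surface of mitotic chromosomes and keeps them apart. Mki67 (ENSMUSG00000031004, chromosome 7 from 135689784 to 135716361, - strand, GRCm38) had 6.61, 7.06 and 7.03 FPKM with siSox9 and 12.9, 12 and 12.8 FPKM with siNC. The groups were 4.9 FPKM apart at their closest, and 55% of the control mean was left. The change was -0.78 on the log2 scale (95% interval -0.88 to -0.68), and 50 of the 12009 genes tested had a lower value. Top2a encodes topoisomerase IIα, which untangles sister chromatids by passing one DNA duplex through another. Top2a (ENSMUSG00000020914, chromosome 11 from 98992943 to 99024189, - strand) had 8.56, 7.97 and 9 FPKM with siSox9 and 14.7, 13.9 and 15 FPKM with siNC. By limma, the difference was -0.71 on the log2 scale (SE 0.05) with an adjusted p of 1.57e-04, and siSox9 replicate 2 was the lowest library.

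Top2a was compared with Top2b, its paralog, which is also expressed in cells that do not divide. Top2b had 11.4, 10.9 and 11.7 FPKM with siSox9 and 12.6, 11.7 and 12.3 FPKM with siNC. These groups overlapped slightly, and the change of Top2b did not pass (-0.10 on the log2 scale, 95% interval -0.20 to 0.00, adjusted p = 0.122 from limma). The FPKM ratio of Top2a to Top2b was 0.752, 0.73 and 0.767 with siSox9 and 1.16, 1.19 and 1.22 with siNC. Which of the pair is higher depends on the exon length, since Top2b (14613 exon bases, against 9013 for Top2a) had more reads in every library. The log2 fold changes differed by -0.61, and the ratios did not overlap (exact permutation p = 0.1; 0.2 adjusted over the 4 pairs compared).

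Tpx2 and Prc1 encode microtubule proteins. TPX2 activates Aurora A and promotes microtubule assembly around the chromosomes, and PRC1 cross-links the antiparallel microtubules of the central spindle. Tpx2 (ENSMUSG00000027469, chromosome 2 from 152847964 to 152895321, + strand) had 12.4, 12.6 and 12.5 FPKM with siSox9 and 21, 20.2 and 20.4 FPKM with siNC. Its spread was small in both groups, with a coefficient of variation of 0.921% and 2.2%, and 60.8% of the control level was left. Prc1 (ENSMUSG00000038943, chromosome 7 from 80294450 to 80316259, + strand) had the lowest FPKM of the 10, with 2.74, 2.6 and 2.89 FPKM with siSox9 and 5.14, 4.97 and 4.93 FPKM with siNC. It kept 54.8% of the control level, while its log2 fold change of -0.68 was close to the -0.67 of Tpx2. Exons of Prc1 overlap those of Rccd1 on the other strand (1.09 to 1.48 FPKM), and the strandedness of the counting is not given in the sources used here, so its level is less certain.

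Ect2, Racgap1 and Anln act on the cleavage furrow. RACGAP1, a subunit of centralspindlin, recruits the exchange factor ECT2 to the cell equator, and anillin (Anln) ties actin, myosin and septins together in the contractile ring. Ect2 (ENSMUSG00000027699, chromosome 3 from 27097222 to 27153878, - strand) had 4.47, 4.51 and 4.93 FPKM with siSox9 and 8.6, 8.2 and 8.83 FPKM with siNC. Racgap1 (ENSMUSG00000023015, chromosome 15 from 99620496 to 99651656, - strand) had 3.42, 3.63 and 3.61 FPKM with siSox9 and 6.57, 6.28 and 6.92 FPKM with siNC. This partner pair kept nearly one ratio. Ect2 stood at 1.31, 1.24 and 1.37 times the FPKM of Racgap1 with siSox9 and at 1.31, 1.31 and 1.28 times with siNC, and the log2 fold changes of -0.76 and -0.74 differed by -0.02 (exact permutation p = 0.6, 0.8 adjusted over 4 pairs). Anln (ENSMUSG00000036777, chromosome 9 from 22332012 to 22389188, - strand) had 6.26, 6.41 and 6.47 FPKM with siSox9 and 11.4, 11.6 and 12.1 FPKM with siNC. It fell by 0.78 on the log2 scale (SE 0.04), with an adjusted p of 5.94e-05 by limma, and the groups were 4.98 FPKM apart.

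Ube2c encodes the ubiquitin-conjugating enzyme that starts ubiquitin chains on substrates of the anaphase-promoting complex (APC/C), such as cyclin B and securin. Ube2c (ENSMUSG00000001403, chromosome 2 from 164769898 to 164778822, + strand) had 10.3, 10.2 and 10.6 FPKM with siSox9 and 18, 17.7 and 17.8 FPKM with siNC. Its log2 fold change was -0.73 (95% interval -0.80 to -0.66), and it had the lowest adjusted p of the 10. Its exons overlap those of Tnnc2 on the other strand, which had at most 0.104 FPKM. Ube2s, the enzyme that elongates the chains, had 21.3, 21.3 and 22.3 FPKM with siSox9 and 23.9, 26.8 and 25.2 FPKM with siNC. It also fell, by 0.22 on the log2 scale (adjusted p = 0.0123 from limma). Its exons overlap those of Rpl28, a ribosomal protein gene on the other strand with 168 to 202 FPKM. Rpl28 was lower with siSox9 as well (means of 170 FPKM with siSox9 and 195 FPKM with siNC). Whether Rpl28 reads were counted for Ube2s was not tested. The level and the fall of Ube2s, and its ratio to Ube2c, are therefore uncertain. The FPKM ratio of Ube2c to Ube2s was 0.484, 0.477 and 0.475 with siSox9 and 0.752, 0.659 and 0.707 with siNC, without overlap (difference of log2 fold changes -0.51, exact permutation p = 0.1, 0.2 adjusted over 4 pairs).

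Cks1b and Cks2 encode small proteins that bind cyclin-dependent kinases, and CKS1 also helps SCF-Skp2 to recognise the CDK inhibitor p27. They had the highest FPKM of the 10 and the smallest changes. Cks1b (ENSMUSG00000028044, chromosome 3 from 89415472 to 89418383, - strand) had 46.7, 43.4 and 43.3 FPKM with siSox9 and 54.5, 55.1 and 54.9 FPKM with siNC, which left 81.1%. Cks2 (ENSMUSG00000062248, chromosome 13 from 51645232 to 51650660, + strand) had 28.9, 32.3 and 31.3 FPKM with siSox9 and 40.3, 36.3 and 37 FPKM with siNC, which left 81.4%. Their log2 fold changes were -0.30 (95% interval -0.38 to -0.21) and -0.29 (95% interval -0.42 to -0.16), and these intervals did not reach those of the other 8 genes, the nearest of which was -0.79 to -0.57 for Prc1. That the Cks pair stood apart was seen in the values and was not tested. The difference between both was 0.01 (exact permutation p = 0.9, also after adjustment), with an FPKM ratio of Cks2 to Cks1b of 0.618 to 0.745 with siSox9 and 0.658 to 0.739 with siNC. Of the 50-base words of the longest Cks2 transcript, 29.7% also occur in other annotated genes, among them Gm15452, which had 17.8 FPKM with siSox9 and 22.4 FPKM with siNC. For Cks1b this share was 7.75% and for the other 8 genes at most 1.49%, so the values of Cks2 are the least certain of the 10.

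**Figure D3:**
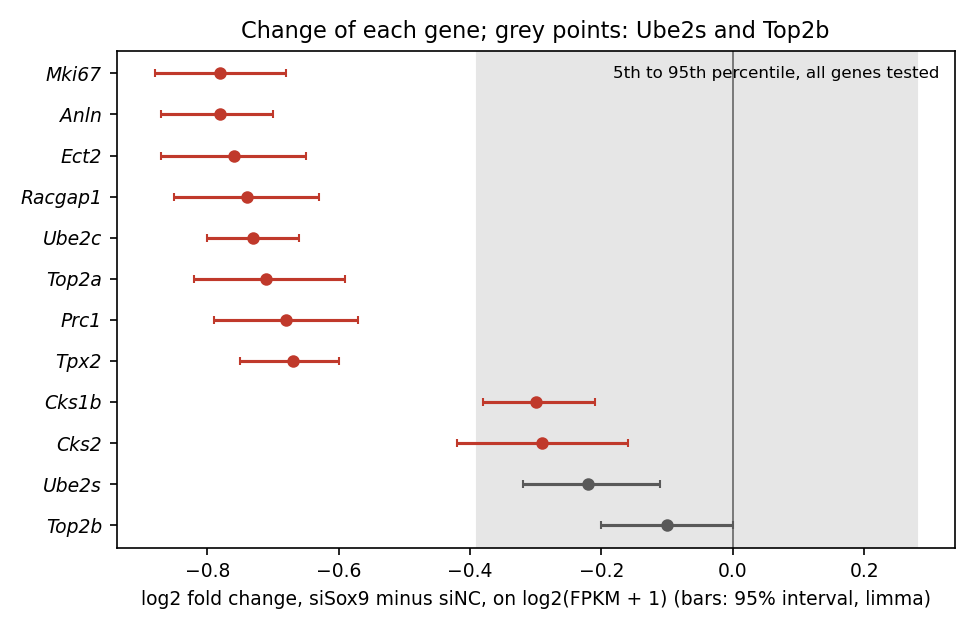
Log2 fold change (siSox9 minus siNC, on the log2(FPKM + 1) scale) of the 10 genes in red and of Ube2s and Top2b in grey, with limma's 95% intervals. The shaded band spans -0.39 to 0.28, the 5th to 95th percentile of all tested genes; 8 genes lie to its left, and Cks1b and Cks2 lie inside it.

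**Figure D4:**
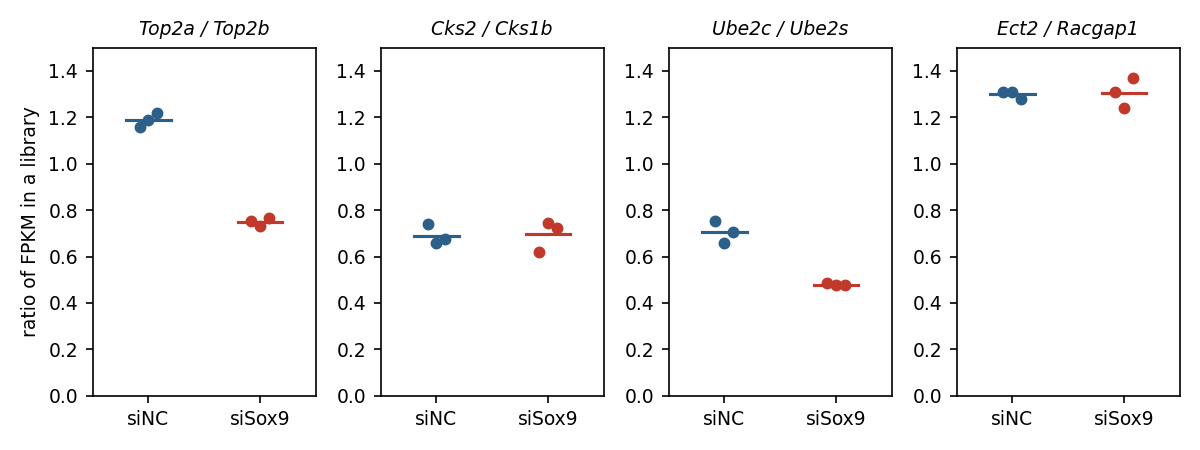
Ratio of FPKM between paired genes in each library (y axis from 0), with siNC in blue, siSox9 in red and lines for the means of 3. The ratios of Top2a to Top2b and of Ube2c to Ube2s are lower in every siSox9 library than in any siNC library, and the other 2 ratios overlap between groups.

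The order of the 10 genes by mean FPKM was the same in both groups, from Cks1b down through Cks2, Tpx2, Ube2c, Top2a, Mki67, Anln, Ect2, Racgap1 and Prc1. An order between genes depends on the exon lengths used. By reads, Cks2 (692 exon bases) was the lowest in every siNC library, at 693, 606 and 636, against 1050, 988 and 1007 for Prc1 (8225 exon bases). Neighbours in the order by FPKM did not overlap in range in either group, except Mki67 and Anln in the siNC group. Within groups no library was low throughout. Among siSox9 libraries, replicate 1 was the lowest for 6 genes, replicate 2 for 3 and replicate 3 for 1, and among siNC libraries replicate 2 was the lowest for 7 genes. The mean log2(FPKM + 1) of the 10 genes was 3.33, 3.34 and 3.37 with siSox9 and 4.01, 3.95 and 4 with siNC. Outside the 10, the tested genes whose profile over the 6 libraries was most like the mean standardised profile of the 10 were Cldn1 (Pearson r = 0.9994), Fbxo21, Zdhhc2, Bub1b and Aspm (each at least 0.9990). This is a description over 6 libraries in 2 groups, and 157 of 11999 genes (1.31%) had r above 0.99. Cldn1, a tight junction gene, had 77.1 FPKM with siSox9 and 134 FPKM with siNC. Bub1b (spindle checkpoint) and Aspm (spindle poles) are mitotic genes.

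The proteins that work with these 10 were then counted by role. Of 94 genes tested over 8 lists, 44 fell (46.8%, against 17.6% of all tested genes) and 11 rose (11.7%, against 12.8%). The 8 genes of the central spindle and the chromosomal passenger complex, which delivers Aurora B to the midzone, all fell, with a median log2 fold change of -0.63. Plk1, the kinase that primes RACGAP1 for ECT2, fell by 0.82 (7.25 ± 0.32 against 13.6 ± 1.16 FPKM, SD, n = 3 each; adjusted p = 2.09e-04 from limma), and Cdca8 (borealin) fell by 0.69. Incenp, the most abundant of the list, had 9.11 ± 0.468 against 13.2 ± 0.726 FPKM (SD, n = 3 each).

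Of 8 septins tested, the filaments that anillin anchors, 3 fell (37.5%, against 17.6% of all tested genes) and 1 rose (12.5%, against 12.8%). The median was -0.06. In this list 1 was lower with TPM, a minimum of 5 FPKM or without siSox9 replicate 2. With no filter or without any one siSox9 library, 0 were higher. Septin4 fell by 0.37, and Septin6 fell by 0.25 with an adjusted p of 0.0194 that rose to between 0.0534 and 0.0658 with TPM, quantile-normalized values, no filter, the block, or without siNC replicate 1, siSox9 replicate 1 or siSox9 replicate 2. The most abundant, Septin11, had 49.2 and 52.5 FPKM and fell by 0.09 (adjusted p = 0.0381 from limma). Its call was lost with TPM, median-centred values or the block (adjusted p from limma 0.0728 to 0.359) and without siNC replicate 2 or 3 or any one siSox9 library (adjusted p from limma 0.0797 to 0.123). Of 18 midbody and ESCRT genes, which sever the last bridge between daughter cells, 3 fell, 3 rose and 12 did not pass (median 0.06). Each direction was 16.7% of the list, near the 17.6% and 12.8% of all tested genes, and 6 were higher with median-centred values. Cep55, which brings ESCRT proteins to the midbody, fell by 0.68 (4.76 ± 0.222 against 8.25 ± 0.76 FPKM, SD, n = 3 each; adjusted p = 5.22e-04 from limma). Chmp1b rose by 0.42 and Chmp4b, the most abundant, had 73.3 and 69.5 FPKM without passing (adjusted p = 0.427 from limma).

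Among 17 TPX2 and spindle assembly partners, 13 fell (76.5%, against 17.6% of all tested genes), 0 rose and 4 did not pass, with a median of -0.30. Kif11, the motor that pushes spindle poles apart, fell by 0.75, and Haus4, an augmin subunit, fell by 0.63. Ran, the GTPase that frees TPX2 from importins, was the most abundant at 162 and 161 FPKM, with a log2 fold change of 0.01 whose sign was negative with quantile-normalized values (-0.03) and without siNC replicate 1 or siSox9 replicate 3 (-0.02 each). Of the 10 CKS partners, 8 fell (80%) and 2 did not pass (median -0.41), with Ccnb2 (cyclin B2) falling by 0.77 and Ccna2 (cyclin A2) by 0.75. Cdkn1b, which encodes p27, fell as well, from 9.51 ± 0.542 to 6.68 ± 0.238 FPKM (SD, n = 3 each), and Skp1, the most abundant, had 69.6 and 73.2 FPKM without passing.

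Of 17 tested genes of the APC/C and its regulators, 7 fell (41.2%, against 17.6% of all tested genes) and 2 rose (11.8%, against 12.8%). The other 8 did not pass, and the median was -0.09. With TPM, 4 fell and 1 rose, and 1 rose without siNC replicate 3 or any one siSox9 library. Cdc20, the mitotic activator, had 10.4 ± 0.351 FPKM with siSox9 and 19.6 ± 1.44 FPKM with siNC (SD, n = 3 each) and fell by 0.86 (adjusted p = 1.08e-04 from limma), and Fbxo5, the inhibitor EMI1, fell by 0.52. Fzr1, the activator in G1, had 11.0 and 11.2 FPKM and did not pass (adjusted p = 0.885 from limma), nor did Anapc2, the most abundant subunit, at 37.0 and 35.4 FPKM. The list of topoisomerases and enzymes for their adducts also held Topbp1, a topoisomerase-binding protein. Of its 8 genes, 1 fell (12.5%, against 17.6% of all tested genes) and 3 rose (37.5%, against 12.8%). The median was -0.06. Top1mt rose by 0.35 (adjusted p = 0.0307 from limma) and Top3a fell by 0.18 (adjusted p = 0.0248), and Top1, the most abundant, rose by 0.14 (adjusted p = 0.0185). Each of these calls was lost without siSox9 replicate 2 (adjusted p from limma 0.0971, 0.0842 and 0.0762 in that order) and without some other libraries. Top1 was also lost with TPM (adjusted p = 0.064 from limma), Top1mt with no filter (adjusted p = 0.102 from limma), and Top3a with TPM, no filter or quantile-normalized values (adjusted p from limma 0.0658 to 0.13). The number of rises was 1 without siNC replicate 3, siSox9 replicate 1 or siSox9 replicate 2. It was also 1 with voom, which tested 10479 genes and left out Top1mt. Of the 8 partners of Ki-67, 1 fell (12.5%, against 17.6% of all tested genes) and 2 rose (25%, against 12.8%), with a median of 0.05. Cdca2 (Repo-Man) fell by 0.53, Nifk, which binds the FHA domain of Ki-67, rose by 0.22 (adjusted p = 0.0103 from limma), and Npm1, the most abundant, had 279 and 265 FPKM without passing.

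**Figure D5:**
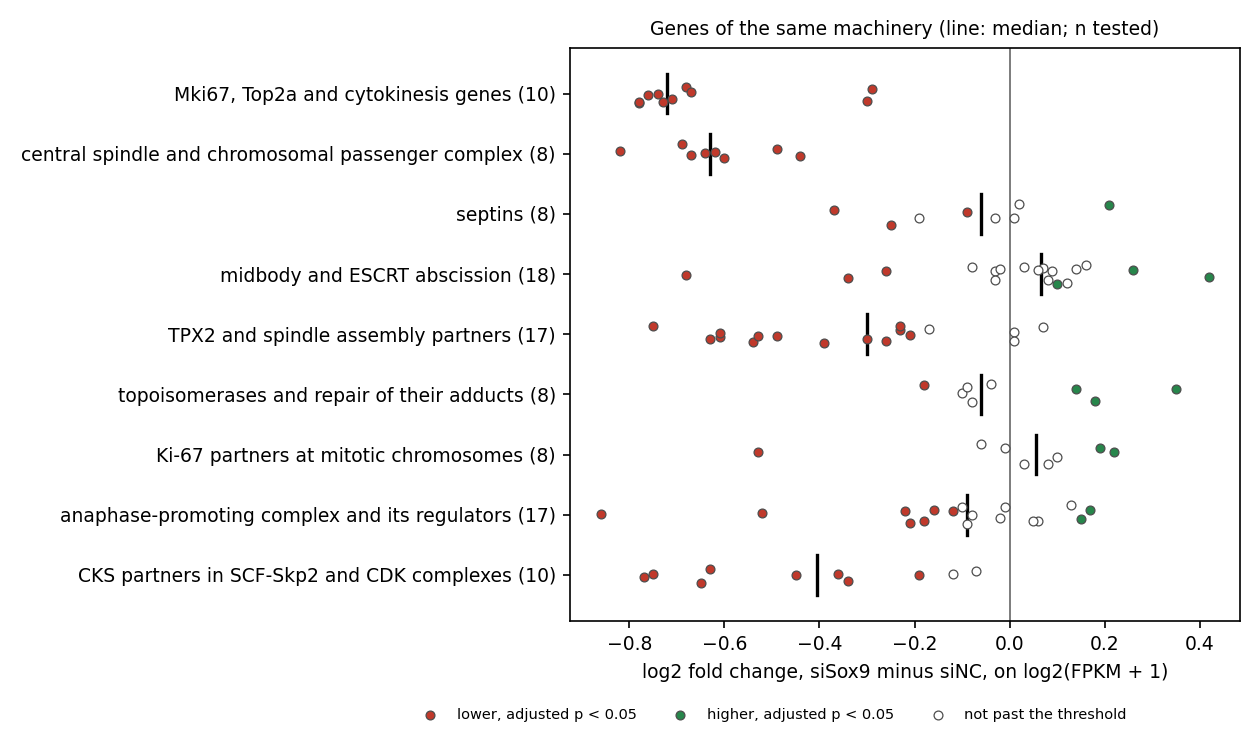
Log2 fold change (x axis, siSox9 minus siNC, on the log2(FPKM + 1) scale) of each tested gene, with 1 row per list, the number tested in brackets and a black line at the median. Red points are lower and green points higher at an adjusted p under 0.05; the central spindle list is red throughout, while the medians of the septin, ESCRT and topoisomerase lists lie near 0 and their genes spread to both sides.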

How the data were processed

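Total RNA of the TECs was sequenced on an Illumina NovaSeq. The authors deposited a table of FPKM values per gene and library; the submitters' processing notes name Bowtie2 2.2.3, HISAT2 2.1.0, TopHat2 and mm9 without a role, and the counter is not given in the sources used here. Positions in the table are those of GRCm38, since 93.3% of the 30246 genes found in GENCODE M21 have the same position there. Columns were assigned by siRNA and replicate number. Those read as siSox9 are named si3, the one siRNA in the table besides siNC. Septins, whose names had become dates, were matched by Ensembl ID.

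Whole reads were recovered from FPKM and M21 exon lengths (within 0.02 reads, 27948 genes). Groups were compared with limma 3.58.1 (R 4.3.3; lmFit, eBayes with trend) on log2(FPKM + 1) for the 12009 genes whose mean reached 1 FPKM, without a replicate block; a gene was called at an adjusted p under 0.05. Of these, 2118 were lower and 1532 higher with siSox9, and with median-centred values 1765 and 1959. Pairs were compared by exact permutation. Limma and read recovery were tested on simulated data. Named genes were the 10, Sox9, Top2b and Ube2s, and the 5 most alike. From each list, the pair with the largest called changes and the most abundant gene, by mean FPKM, were named. Cdkn1b, Fzr1 and the markers named were chosen after their values were seen. All lists were likewise chosen with earlier results of these data known, as the 10 genes were, and 1 list is not reported here. Summaries and plots were made in Python 3.11.15 (scipy 1.17.1, pandas 2.3.3, numpy 2.4.6, matplotlib 3.10.9).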

Additional observations from a re-analysis of the deposited data

How the results depend on the processing

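All 10 genes kept their direction and an adjusted p under 0.05 under each alternative in which they were tested: a pseudocount of 0.1, no filter, a minimum of 5 FPKM (which left out Prc1, so that 9 were called), TPM, median-centred and quantile-normalized values, limma voom on the recovered reads, the replicate block and leaving out each library. The largest adjusted p was 0.0371, for Cks2 with TPM. Same-numbered libraries did not deviate together (correlations of 0.065, -0.050 and 0.008). With 3 libraries a group, this cannot show whether the replicates were paired. With the replicate block 3262 genes were called in place of 3650, and 10 of the 10 were lower. Over all genes, 1332 were lower with TPM and 1376 with a minimum of 5 FPKM, which tests fewer genes, in place of 2118; the cause with TPM was not tested. Leaving out a library gave 2424 to 3654 calls, 944 to 1565 of them higher, the fewest without siSox9 replicate 2. The most, 3654, came without siNC replicate 1, and leaving out any other library gave 2424 to 2849. In the lists, 38 to 42 genes were lower and 6 to 11 higher when a library was left out, in place of 44 and 11 of 94, with 7 higher without siNC replicate 3 and 6, 6 and 7 without siSox9 replicates 1, 2 and 3. The difference between Cks2 and Cks1b, 0.01, was -0.01 with quantile-normalized values and -0.04 to 0.09 without single libraries, and that between Ect2 and Racgap1, -0.02, was 0.01 with a pseudocount of 0.1 and -0.05 to 0.01 without single libraries. Ran was -0.03 with quantile-normalized values and -0.02 (without siNC replicate 1 or siSox9 replicate 3) to 0.03 when a library was left out. With 3 libraries a group, an exact test cannot pass 0.05.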
